A study of Gallus gallus with 23 samples.

Results

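The genes described here are 10 sarcomeric myosin genes measured in embryonic chicken growth cartilage. They are the heavy chains MYH1B, MYH1C, MYH1D, MYH1G, MYH15 and MYH7, the light chains MYL2, MYL3 and MYL4, and the myosin-binding protein MYBPC1. They were chosen by name, as probe sets that carry 1 gene symbol, among 12300 such probe sets of 20804 on the array. The list is not complete. Probe sets of MYH1A, MYH1E, MYH13 and MYBPC3 were also on the array. For the light chain genes MYL1 and MYLPF no probe set with 1 symbol was found. Earlier results of these data were known when the list was made. The shares of called members given below therefore describe the list and do not test it. Each of the 10 genes had 1 such probe set, and all 10 passed the filter on low and invariant probe sets, which left 11004 for testing. The filter kept probe sets whose standard deviation (SD) over the 23 arrays was above 10 on the linear scale. This SD includes the differences between groups that are tested below.

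Growth cartilage was dissected from the distal femur and the proximal tibiotarsus (TBT, the tibia of the sample labels) of chick embryos on embryonic days E12, E13 and E15, and RNA was hybridised to Affymetrix chicken exon arrays. Controls received the vehicle, Tyrode's solution, and the immobilised embryos received decamethonium bromide, a neuromuscular blocking agent that causes rigid paralysis, with treatment beginning at E10. There were 3 arrays for each of E12 control femur, E12 control TBT, E13 control femur, E13 control TBT, E15 control TBT, E15 immobilised femur and E15 immobilised TBT, and 2 for E15 control femur, because the study excluded 1 array as an outlier. Each array held RNA pooled from the cartilage of 4 embryos, so the spread between arrays is a spread between pools, the sex of the embryos was not known, and immobilisation was examined at E15 only.

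Sarcomeric myosin is the motor of striated muscle. A heavy chain carries the ATPase head and the rod that packs into the thick filament, an essential and a regulatory light chain wrap the neck of each head, and myosin-binding protein C ties the filament together and tunes the access of the heads to actin. Developing muscle switches among isoforms of each subunit as fibres mature, and chondrocytes rely instead on non-muscle myosin. MYH1B, MYH1C, MYH1D and MYH1G belong to the fast skeletal heavy chain cluster of the chicken. MYH15 is listed by RefSeq with the older chicken name VMHC1, a ventricular heavy chain. MYH7 is listed with AMHC1, the atrial heavy chain of the chick. How chicken MYH7 relates to the slow heavy chain of mammals with the same symbol was not examined. MYL2 is the regulatory light chain and MYL3 the essential light chain of slow and ventricular muscle. MYL4 is the essential light chain of embryonic skeletal muscle and of the atrium, and MYBPC1 is the slow skeletal form of myosin-binding protein C.

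The values are log2 RMA values (background-corrected, quantile-normalised and summarised for each probe set). Medians of the 23 arrays lay between 5.78 and 5.85, and pairs of arrays correlated at 0.962 to 0.983 within groups and at 0.923 to 0.98 between groups. Of 16 listed cartilage markers 11 were on the array, among them the aggrecan gene ACAN, the type IX collagen gene COL9A1 and the transcription factor gene SOX9. All 11 passed the filter and lay above the array median on all 23 arrays. Genes of other tissues also had high means, such as the type I collagen gene COL1A1 (13.43) and the globin gene HBAD (12.12), so this does not measure purity. The array names end in 05, 07 or 09, a code whose meaning the labels do not give. All E15 femur arrays carried 05, and the E15 TBT arrays carried 07 or 09. In RNA from dissected tissue, fewer muscle cells or fibres in the sample and less RNA per cell cannot be told apart, and this holds for every difference below.

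Probes set a limit on the heavy chains. In the RefSeq annotation the fast genes MYH13, MYH1D, MYH1F, MYH1A, MYH1B, MYH1E, MYH1C and MYH1G stand in this order with no other coding gene between them, and such close copies can share hybridisation, so the 4 fast members are uncertain as single isoforms. Probe sets for MYH1A, MYH1E and MYH13 were on the array but did not pass the filter, with values of 3.29 to 4.80, 3.75 to 5.31 and 3.19 to 5.24 over the 23 arrays. When all probe sets were tested without the filter, MYH1A, MYH1E and MYH13 were each called in 0 of the 10 comparisons. A probe set that carries both the MYH1B and the MYH1F symbol was not used, and ranged from 3.13 to 5.65. It did not pass the filter, and without the filter it was called in 0 of the 10 comparisons. With immobilisation it differed by -0.57 in the femur (adjusted p = 0.58) and by -0.29 in the TBT (adjusted p = 0.786). By its number the MYH1C probe set lies apart from those of the other fast genes and close to that of MYH7. What this means for the MYH1C values was not tested. Levels of different probe sets are not compared with each other, since probes differ in how well they bind.

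**Figure D1:**
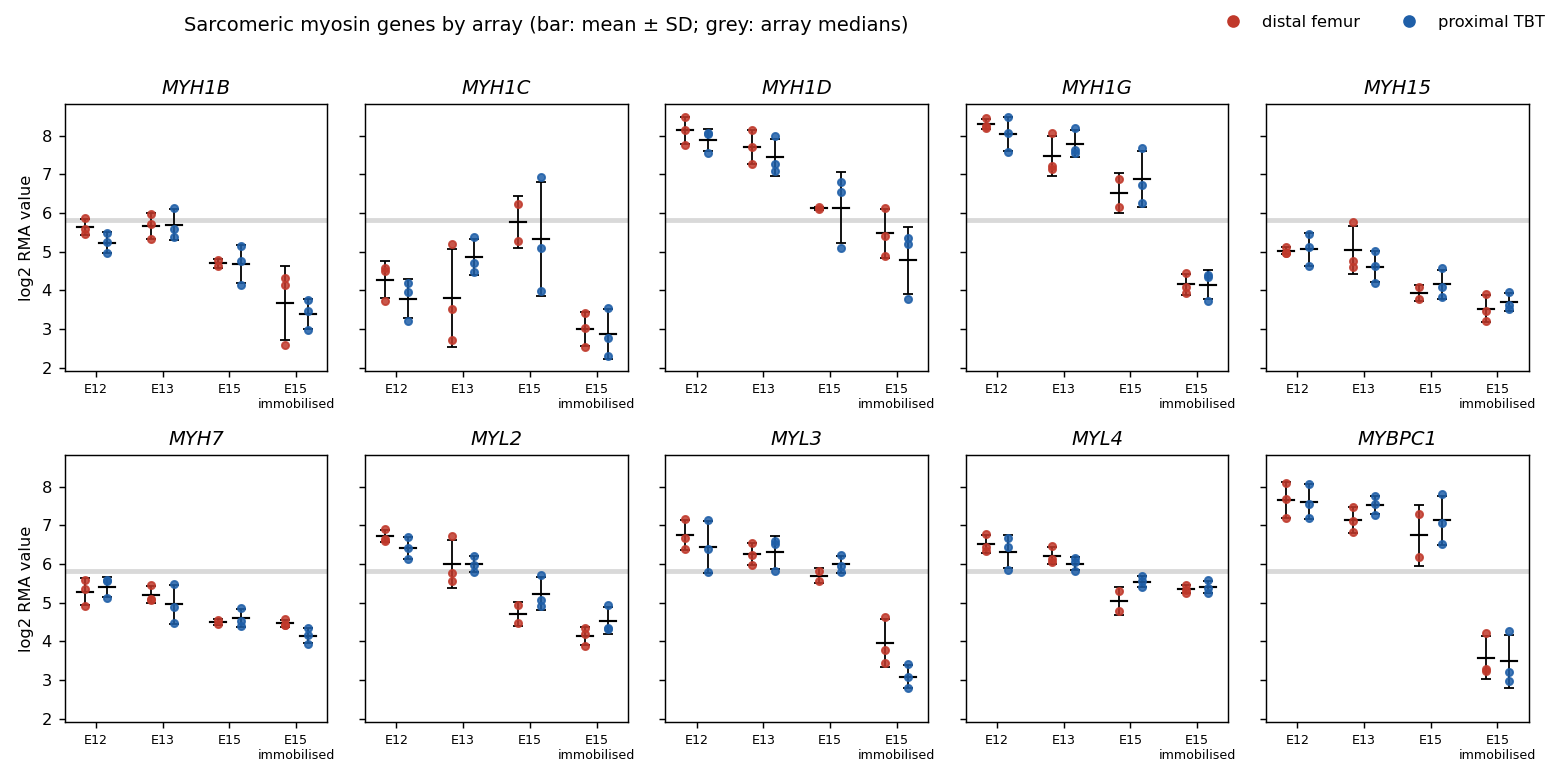
Log2 RMA values of the 10 sarcomeric myosin genes on each array (points), for distal femur (red) and proximal TBT (blue), with stage and treatment on the horizontal axis and the log2 RMA value on the vertical axis. Bars give the mean ± SD of each group of 2 or 3 arrays, and the grey band is the range of array medians, 5.78 to 5.85. MYH1G, MYL3 and MYBPC1 are lowest in the immobilised groups, MYH1D, MYL2 and MYL4 step down between E13 and E15 in the controls, and MYH1C is highest in the E15 controls.

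The main question was how the isoforms stood after the embryos had been kept from moving. In both elements the fast heavy chains MYH1C and MYH1G, the light chain MYL3 and MYBPC1 fell with immobilisation, by about 3.3-fold to 12.6-fold, and in the TBT the fast heavy chain MYH1B fell as well. The embryonic light chain MYL4 and the cardiac-named heavy chains MYH15 and MYH7 were not called in either element. In the femur 4 of 10 members were lower at an adjusted p under 0.05, against 2.5% of all 11004 probe sets, and 0 were higher, against 1.89%. In the TBT 5 of 10 were lower, against 2.86%, and 0 were higher, against 2.88%. The median change of the 10 members was -0.84 in the femur and -1.32 in the TBT on the log2 scale, beside 0 and 0.01 for all probe sets tested. Of 60 values of the members on the 6 immobilised arrays, 59 lay below the median of their array, as did 81 of 170 on the 17 control arrays. The 17 control arrays include those of E12 and E13, so this contrast mixes stage with immobilisation. Among the E15 controls MYH1B, MYH15, MYH7, MYL2 and MYL4 already lay below the median on every array, and MYH1G and MYBPC1 on none.

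MYBPC1 had the largest fall of the members in both elements. In the femur it read 6.19 and 7.30 in the E15 controls and 4.22, 3.23 and 3.29 after immobilisation. Its TBT arrays read 7.07, 7.80 and 6.53 in the controls and 2.97, 4.26 and 3.22 after immobilisation. No immobilised array came within 1.97 log2 units of a control array in either element. The change was -3.17 (SE 0.45, 8.97-fold lower, adjusted p = 0.000474) in the femur and -3.65 (SE 0.40, 12.6-fold lower, adjusted p = 3.41e-05) in the TBT, where it ranked 16 of 11004 probe sets by p. The call held when any 1 array was left out.

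MYH1G, at the end of the fast cluster, followed. Its femur values were 6.15 and 6.89 in the E15 controls and 4.08, 3.93 and 4.46 in the immobilised femurs. Its TBT values were 6.72, 7.68 and 6.26 in the controls and 4.39, 4.34 and 3.72 in the immobilised TBT. Groups were again separate, by at least 1.69 log2 units, and the immobilised arrays of the femur and TBT lay within 3.72 to 4.46. The change was -2.36 (SE 0.38, adjusted p = 0.00151) in the femur and -2.74 (SE 0.34, adjusted p = 0.000118) in the TBT. Without E15 control femur replicate 2 the femur call was lost (-1.99, adjusted p = 0.0526), and the TBT call held without any 1 array.

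MYL3, the slow and ventricular essential light chain, separated the groups too. It read 5.56 and 5.83 in the E15 control femurs and 4.64, 3.79 and 3.45 in the immobilised femurs. In the TBT the controls read 5.95, 6.24 and 5.80 and the immobilised arrays 3.41, 2.80 and 3.07. The control and immobilised TBT thus lay 2.39 log2 units apart at their nearest, the widest gap of any member. The change was -1.74 (SE 0.37, adjusted p = 0.0117) in the femur and -2.90 (SE 0.33, adjusted p = 4.94e-05) in the TBT. The femur call rested on both controls: dropping E15 control femur replicate 1 gave an adjusted p of 0.0638, and dropping replicate 2 gave 0.14.

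MYH1C showed a large change with a wide spread. It read 5.29 and 6.24 in the E15 control femurs and 3.41, 2.54 and 3.04 after immobilisation, a change of -2.77 (SE 0.72, adjusted p = 0.0364). In the TBT it read 5.09, 6.92 and 3.98 in the controls and 2.30, 2.77 and 3.56 after immobilisation, a change of -2.45 (SE 0.64, adjusted p = 0.0306). The groups did not overlap in either element, although E15 control TBT replicate 3 lay only 0.42 above the highest immobilised TBT. Leaving out any 1 of the 5 femur arrays took the femur call to an adjusted p of 0.0565 to 0.277, the highest without E15 control femur replicate 2. The TBT call was lost when E15 control TBT replicate 2 was dropped (-1.66, adjusted p = 0.127), and dropping replicate 1 or 2 of the immobilised TBT gave 0.122 and 0.0959. With no filter neither MYH1C call held (adjusted p = 0.0607 in the femur and 0.0515 in the TBT).

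MYH1B, another fast heavy chain, was called in the TBT alone, and the difference between elements did not pass its own test (0.25, SE 0.54, adjusted p = 0.936). It read 4.75, 5.14 and 4.15 in the E15 control TBT and 3.76, 2.99 and 3.46 after immobilisation, a change of -1.28 (SE 0.36, adjusted p = 0.0464). In the femur it read 4.62 and 4.79 against 2.59, 4.13 and 4.32, a difference of -1.03 (SE 0.41, adjusted p = 0.168). Arrays of the groups did not overlap in either element. The unused probe set with both the MYH1B and MYH1F symbols was not called in the TBT without the filter (-0.29, adjusted p = 0.786). Dropping replicate 1 or 2 of the E15 control TBT took the adjusted p of the TBT call to 0.0942 and 0.152, and dropping replicate 1, 2 or 3 of the immobilised TBT took it to 0.062, 0.191 and 0.102. With array code as a block the TBT difference was -1.36 and was not called (adjusted p = 0.0565), which left 4 of 10 members called in the TBT, and the call was also lost with quantile normalization (adjusted p = 0.056), with no filter (adjusted p = 0.0763) and with a trended, robust variance (adjusted p = 0.0615).

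The fast heavy chain MYH1D overlapped between groups. It read 6.54, 6.80 and 5.09 in the control TBT and 3.79, 5.35 and 5.19 after immobilisation, a difference of -1.37 (SE 0.45, adjusted p = 0.0903). Without E15 control TBT replicate 3, the array at 5.09, the change was -1.89 and was called (adjusted p = 0.0245). In the femur it read 6.10 and 6.15 against 6.14, 5.40 and 4.88, a difference of -0.65 (SE 0.50, adjusted p = 0.527).

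MYL4, the embryonic and atrial essential light chain, stood apart from MYL3. Its femur values were 5.31 and 4.80 in the E15 controls and 5.34, 5.25 and 5.45 after immobilisation, and its TBT values were 5.55, 5.68 and 5.40 against 5.58, 5.38 and 5.26. The control and immobilised arrays overlapped in both elements. The difference was 0.29 in the femur (95% interval -0.15 to 0.73, adjusted p = 0.488) and -0.14 in the TBT (95% interval -0.53 to 0.26, adjusted p = 0.769). These intervals leave room for a fall of at most 0.53 on the log2 scale, whereas the interval of MYL3 in the TBT ran from -3.60 to -2.20.

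The remaining members did not pass the threshold with immobilisation. MYL2, the slow and ventricular regulatory light chain, differed by -0.57 (SE 0.31, adjusted p = 0.335) in the femur and by -0.70 (SE 0.27, adjusted p = 0.165) in the TBT. MYH15 differed by -0.41 (SE 0.33, adjusted p = 0.545) in the femur and by -0.45 (SE 0.29, adjusted p = 0.451) in the TBT. MYH7 differed by -0.02 (SE 0.24, adjusted p = 0.98) in the femur and by -0.45 (SE 0.22, adjusted p = 0.276) in the TBT. MYH15 and MYH7 lay below the array median on all 23 arrays, controls included.

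**Figure D2:**
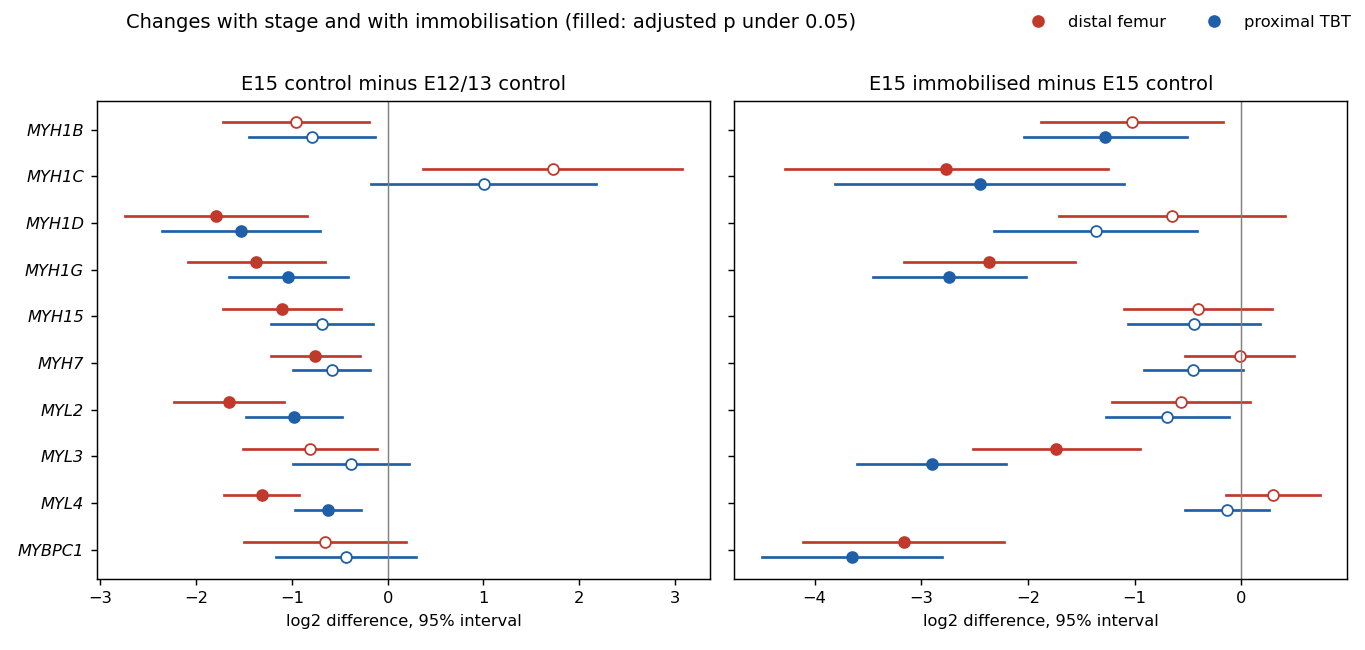
Log2 differences of the 10 genes (points) with 95% intervals (lines) in the femur (red) and TBT (blue), for E15 controls minus E12/13 controls on the left and for E15 immobilised minus E15 controls on the right; filled points have an adjusted p under 0.05. With stage, MYL4 and MYL2 fell while MYBPC1 did not pass, and with immobilisation MYBPC1 changed by -3.17 and -3.65 while the MYL4 intervals cross 0. The panels share the E15 control arrays.

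The femur calls leaned on the spread of the other groups. With only the 5 E15 femur arrays in the fit, 0 of 10 members were called in the femur (smallest adjusted p = 0.0588, for MYH1G), and with only the 6 E15 TBT arrays 3 of 10 were called. Within array code 07 (1 immobilised against 2 control TBT arrays), 8 of 10 members were below 0, with MYBPC1 at -3.83, MYL3 at -2.46 and MYL4 at 0.11. Within code 09 (2 against 1), all 10 were below 0, with MYBPC1 at -4.06, MYL3 at -3.31 and MYL4 at -0.36. The 1 control array of code 09 was E15 control TBT replicate 2, the highest control TBT for most members.

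The second question was how the isoforms changed as the control cartilage aged from E12 and E13 to E15. The regulatory light chain MYL2, the embryonic light chain MYL4 and the fast heavy chains MYH1D and MYH1G fell in both elements, by 1.54-fold to 3.47-fold, and MYH15 and MYH7 fell in the femur. In the femur 6 of 10 members were lower, against 6.97% of all probe sets, and 0 were higher, against 5.26%. In the TBT 4 of 10 were lower, against 5.72%, and 0 were higher, against 3.74%. The median change of the members was -1.03 in the femur and -0.65 in the TBT, beside 0.01 and -0.01 for all probe sets. The E15 controls enter this comparison and the one with immobilisation, so the changes of a gene in the 2 comparisons are not independent.

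MYL4 had the smallest p of the members with stage in the femur. Its 6 femur arrays at E12 and E13 read 6.33, 6.78, 6.44, 6.05, 6.14 and 6.47, and the E15 control femurs read 5.31 and 4.80. Both E15 arrays lay at least 0.74 below every younger array. The change was -1.31 (SE 0.19, 2.49-fold lower, adjusted p = 0.000577), and it was called whichever array was left out. In the TBT the younger arrays read 5.85, 6.43, 6.67, 6.15, 5.83 and 6.06 and the E15 controls 5.55, 5.68 and 5.40. The TBT change was -0.62 (SE 0.16, adjusted p = 0.0218), with no overlap, and dropping replicate 1 or 3 of the E15 control TBT took the adjusted p to 0.051 and 0.139.

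MYL2 moved in the same direction. It read 6.66, 6.60 and 6.91 at E12, 5.76, 5.55 and 6.72 at E13 and 4.93 and 4.49 at E15 in the femur, a change of -1.66 (SE 0.27, adjusted p = 0.00161). Its TBT arrays read 6.12, 6.41 and 6.71 at E12, 5.98, 5.80 and 6.22 at E13 and 4.91, 5.71 and 5.07 at E15, a change of -0.98 (SE 0.24, adjusted p = 0.0152). E15 arrays were below all younger arrays in both elements, in the TBT by 0.09 only. The femur call was lost when E15 control femur replicate 2 was dropped (adjusted p = 0.0564), and dropping replicate 1 or 3 of the E15 control TBT took the TBT call to 0.0665 and 0.0998.

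MYH1D had the largest stage fall of the heavy chains. In the femur it read 7.77, 8.49 and 8.14 at E12, 7.71, 7.26 and 8.14 at E13 and 6.10 and 6.15 at E15. In the TBT it read 7.56, 8.07 and 8.05 at E12, 7.09, 7.26 and 7.99 at E13 and 6.54, 6.80 and 5.09 at E15. All E15 arrays lay below all younger arrays of their element. The change was -1.79 (SE 0.45, 3.47-fold lower, adjusted p = 0.0173) in the femur and -1.53 (SE 0.39, 2.88-fold lower, adjusted p = 0.0199) in the TBT. Dropping replicate 1 or 2 of the E15 control femur took the femur call to an adjusted p of 0.13 and 0.129, and dropping E15 control TBT replicate 3 left a TBT difference of -1.0 (adjusted p = 0.19).

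MYH1G was lower at E15 as well as after immobilisation. Its femur values were 8.20, 8.26 and 8.45 at E12, 7.21, 7.14 and 8.07 at E13 and 6.15 and 6.89 at E15, a change of -1.37 (SE 0.34, adjusted p = 0.0164). Its TBT values were 7.59, 8.08 and 8.47 at E12, 7.56, 7.63 and 8.20 at E13 and 6.72, 7.68 and 6.26 at E15, a change of -1.04 (SE 0.29, adjusted p = 0.0339). In the TBT the stages overlapped through E15 control TBT replicate 2. Dropping replicate 1 or 2 of the E15 control femur took the adjusted p of the femur call to 0.232 and 0.0565. The TBT call went to 0.0567 and 0.0687 when replicate 2 or 3 of the E12 TBT was dropped, to 0.0704 when replicate 3 of the E13 TBT was dropped, and to 0.095 and 0.258 when replicate 1 or 3 of the E15 control TBT was dropped.

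MYH15 and MYH7, the heavy chains with cardiac names, fell with stage in the femur. MYH15 read 4.97, 4.98 and 5.13 at E12, 4.61, 4.76 and 5.77 at E13 and 3.79 and 4.08 at E15, a change of -1.10 (SE 0.29, adjusted p = 0.0219). MYH7 read 4.91, 5.35 and 5.59 at E12, 5.11, 5.06 and 5.47 at E13 and 4.44 and 4.55 at E15, a change of -0.75 (SE 0.22, adjusted p = 0.0332). E15 arrays lay below all younger femur arrays for both genes. Both passed the filter narrowly, with SDs of 11.52 (MYH15) and 10.57 (MYH7) that include the stage difference itself. With no filter MYH15 was still called in the femur (adjusted p = 0.0405) and MYH7 was not (adjusted p = 0.0598). In the TBT the stages overlapped, with -0.68 for MYH15 (SE 0.25, adjusted p = 0.0975) and -0.58 for MYH7 (SE 0.19, adjusted p = 0.0616). Dropping E15 control femur replicate 1 gave an adjusted p of 0.2 for MYH15 and 0.213 for MYH7, and dropping replicate 2 gave 0.106 and 0.157. The femur call of MYH7 was also lost when replicate 2 of the E12 femur was dropped (adjusted p = 0.0566), and MYH7 was called in the TBT when replicate 1 of the E12 TBT (adjusted p = 0.0475) or of the E13 TBT (adjusted p = 0.022) was dropped.

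MYH1C alone had a positive stage difference, which did not pass the test. In the femur it read 4.59, 3.73 and 4.51 at E12, 3.52, 5.20 and 2.71 at E13 and 5.29 and 6.24 at E15, so that both E15 arrays lay above all 6 younger arrays, by 0.09 at the nearest. The difference was 1.72 (SE 0.64, adjusted p = 0.086). Without E13 control femur replicate 2, the array at 5.20, it was 2.07 and was called (adjusted p = 0.0337). Its TBT arrays read 3.22, 4.20 and 3.95 at E12, 5.39, 4.71 and 4.49 at E13 and 5.09, 6.92 and 3.98 at E15, with overlap and a difference of 1.00 (SE 0.56, adjusted p = 0.279).

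MYL3 and MYBPC1, which fell with immobilisation, were not called with stage. MYL3 differed by -0.81 (SE 0.33, adjusted p = 0.119) in the femur and by -0.38 (SE 0.29, adjusted p = 0.438) in the TBT. MYBPC1 differed by -0.65 (95% interval -1.49 to 0.19, adjusted p = 0.304) in the femur and by -0.44 (95% interval -1.17 to 0.30, adjusted p = 0.468) in the TBT. MYBPC1 read 7.19 to 8.10 at E12, 6.83 to 7.76 at E13 and 6.19 to 7.80 in the E15 controls over both elements, and the stages overlapped. MYH1B differed by -0.96 (SE 0.36, adjusted p = 0.0914) in the femur and by -0.79 (SE 0.31, adjusted p = 0.123) in the TBT.

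The stage comparison leaned on the youngest arrays. Against E12 alone, 6 of 10 members were called in the femur and 5 in the TBT. Against E13 alone, MYL2 (-1.30, adjusted p = 0.0243) and MYL4 (-1.17, adjusted p = 0.00678) were called in the femur and 0 members in the TBT (smallest adjusted p = 0.13, for MYH1D). All E13 femur arrays carried code 07 and all E15 femur arrays 05, so this femur contrast cannot be told apart from the code. With array code as a block, 3 of 10 were called in the femur and 1, MYL2, in the TBT. With no filter MYH7 in the femur (adjusted p = 0.0598) and MYH1G in the TBT (adjusted p = 0.0544) were not called, and with a trended, robust variance MYH15 (adjusted p = 0.0623) and MYH7 (adjusted p = 0.0969) in the femur were not. Within code 05 (2 against 2 femur arrays) 9 members were below 0, within code 07 (2 against 2 TBT arrays) 9, and within code 09 (1 against 3 TBT arrays) 8.

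Between E12 and E13 no isoform passed the threshold. By limma 0 of 10 members and 0 of 11004 probe sets (0%) were called, while 3 members, MYH1G, MYL2 and MYL4, and 822 probe sets had an unadjusted p under 0.05. MYL2 differed by -0.56 (SE 0.19, adjusted p = 0.423), MYH1G by -0.54 (SE 0.24, adjusted p = 0.639) and MYL4 by -0.30 (SE 0.13, adjusted p = 0.639), and E12 and E13 arrays of all 3 overlapped. The MYL2 and MYH1G differences were among the lowest 0.573% and 0.7% of all probe sets tested. MYH1B (0.25) and MYH1C (0.30) were higher at E13 and the other members lower. The direction was not shared by the array codes. Within code 07 (4 E13 arrays against 1 E12 array), 8 of 10 members were above 0 at E13. Within code 09 (2 against 2), 8 of 10 were below 0. Femur and TBT arrays were mixed unequally in both, so these directions cannot be assigned to the code.

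Femur and TBT were compared at each step, with their arrays treated as independent. Whether same-numbered femur and TBT arrays came from the same embryos was not tested. Among the E15 arrays all femurs carried code 05 and the TBT 07 or 09, so element and code cannot be told apart there. At E12/13, 0 of 10 members were called, against 0.0545% of probe sets, and 0 members had an unadjusted p under 0.05. At E15 the control femur and TBT gave 0 of 10, against 0.209%, with MYL4 at -0.49 (femur lower, SE 0.21, adjusted p = 0.287) the only member with an unadjusted p under 0.05. After immobilisation 0 of 10 were called, against 2.04%, with MYL3 at 0.87 (femur higher, SE 0.33, adjusted p = 0.216) the only one by the unadjusted p. Both E15 control femurs lay below the 3 control TBT for MYL4, and all 3 immobilised femurs lay above the 3 immobilised TBT for MYL3, by 0.04. With array code as a block, the probe sets called fell from 23 to 0 in the E15 controls and from 225 to 17 after immobilisation.

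The effects themselves were compared between elements by an interaction term. For immobilisation 0 of 10 members were called, against 0.182% of probe sets. The effect on MYL3 in the femur minus that in the TBT was 1.17 (95% interval 0.12 to 2.22, adjusted p = 0.496). For stage 0 of 10 were called, against 0% of probe sets. The effect on MYL4 in the femur minus that in the TBT was -0.69 (95% interval -1.21 to -0.17, adjusted p = 0.357). MYL3 was the only member with an unadjusted p under 0.05 for immobilisation (968 probe sets had one), and MYL4 the only one for stage (1152 probe sets). The other intervals were wide, for MYH1C from -2.34 to 1.71 for immobilisation.

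**Figure D3:**
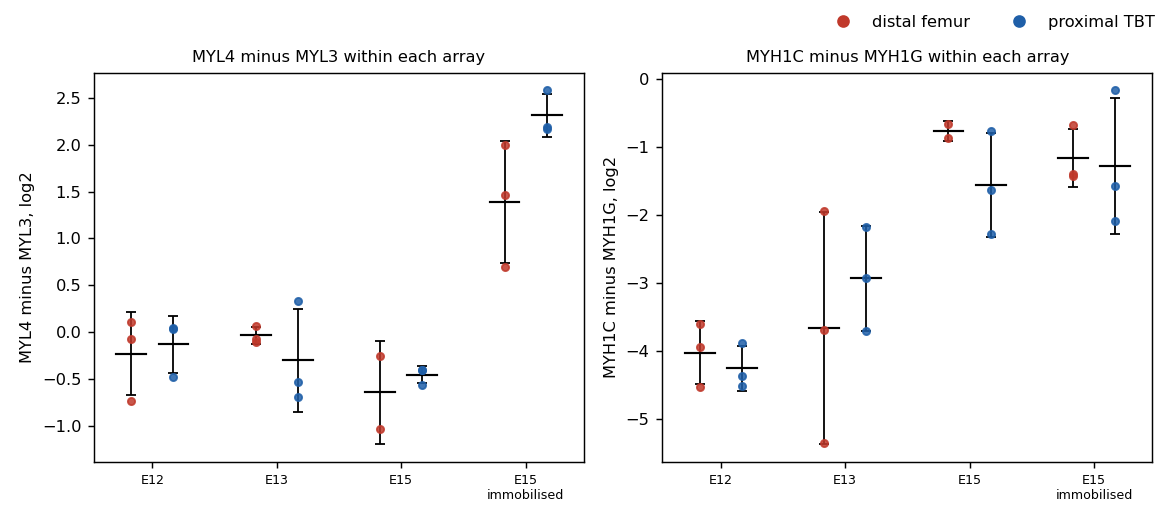
Differences between a pair of members on the same array (points), as log2 units on the vertical axis, by stage and treatment, for the femur (red) and TBT (blue); bars give the mean ± SD of each group. MYL4 minus MYL3 lies between -1.03 and 0.33 on the 17 control arrays and between 0.70 and 2.58 on the 6 immobilised arrays, and MYH1C minus MYH1G rises from E12 to E15.

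Differences taken within an array show which isoforms moved unequally, while their level has no meaning of its own because the probes differ. They restate the changes of single genes given above and are not a separate test. The difference of the essential light chains, MYL4 minus MYL3, was -0.25 and -1.03 in the E15 control femurs and 0.70 to 2.00 in the immobilised femurs. In the TBT it was -0.56 to -0.40 in the E15 controls and 2.17 to 2.58 after immobilisation. No control array of any stage overlapped with an immobilised array. This follows from the fall of MYL3 (-1.74 in the femur and -2.90 in the TBT) beside MYL4, which was not called. It is no further support for a change of either gene. For the fast heavy chains, MYH1C minus MYH1G was -4.53 to -3.61 in the E12 femur, -5.36 to -1.94 in the E13 femur and -0.86 to -0.65 in the E15 control femur. In the TBT it was -4.52 to -3.88 at E12, -3.71 to -2.17 at E13 and -2.28 to -0.76 at E15. After immobilisation it was -1.42 to -0.67 in the femur and -2.09 to -0.16 in the TBT, overlapping with the E15 controls in both elements.

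The other sarcomere genes came from lists of the thick filament, the thin filament, and titin, the Z-disc and M-band. Of 5 further thick filament genes past the filter (10 on the array), 2 were lower with immobilisation in the femur and 3 in the TBT, led by the M-band gene MYOM3 (-2.31 and -2.11). Of 8 thin filament genes (11 on the array), 7 were lower in each element, among them the fast troponin C gene TNNC2 (-2.53 in the femur and -3.21 in the TBT) and the cardiac actin gene ACTC1 (-2.73 and -2.44). Of 7 genes of titin and the Z-disc (10 on the array), the femur had 3 lower and the TBT 5, with titin, TTN, at -3.32 and -3.24 and the actinin gene ACTN2 at -2.02 and -2.57. With stage 4 and 4 thick filament, 3 and 3 thin filament and 3 and 4 titin and Z-disc genes were lower in the femur and TBT, and 0 were higher. Over all probe sets 2.5% and 2.86% were lower with immobilisation in the femur and TBT, and 6.97% and 5.72% with stage. The SD used by the filter includes these changes. Counts past it, here and for the lists below, are therefore not independent of the changes tested. The lists were also chosen with earlier results of these data known.

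A further list held genes of the fibre membrane, calcium handling and energy use. Of 5 past the filter (10 on the array), 2 were lower with immobilisation in the femur, the calsequestrin gene CASQ2 (-1.71, adjusted p = 0.0109) and the embryonic acetylcholine receptor subunit gene CHRNG (-1.10, adjusted p = 0.016), and CASQ2 was lower in the TBT (-1.15, adjusted p = 0.0433). Of 6 myogenic regulator genes (11 on the array), 1 was lower in each element, MSC (-3.17 and -3.15), a repressor of myogenic factors that is also expressed outside muscle, and 1 was higher, EYA4 (0.57 and 0.52). MYOD1, the myoblast determination factor, was lower with stage (-1.55 in the femur, adjusted p = 0.00364, and -1.40 in the TBT, adjusted p = 0.0027). In the fibre membrane list 2 genes were lower with stage in the femur, CHRNG (-0.72) and the receptor subunit gene CHRND (-0.97). In the TBT 2 were lower, CHRNG (-1.34) and CASQ2 (-0.98), and 1 was higher, the parvalbumin gene PVALB (1.15, adjusted p = 0.0168). PVALB differed by 0.88 in the femur (adjusted p = 0.0876).

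**Figure D4:**
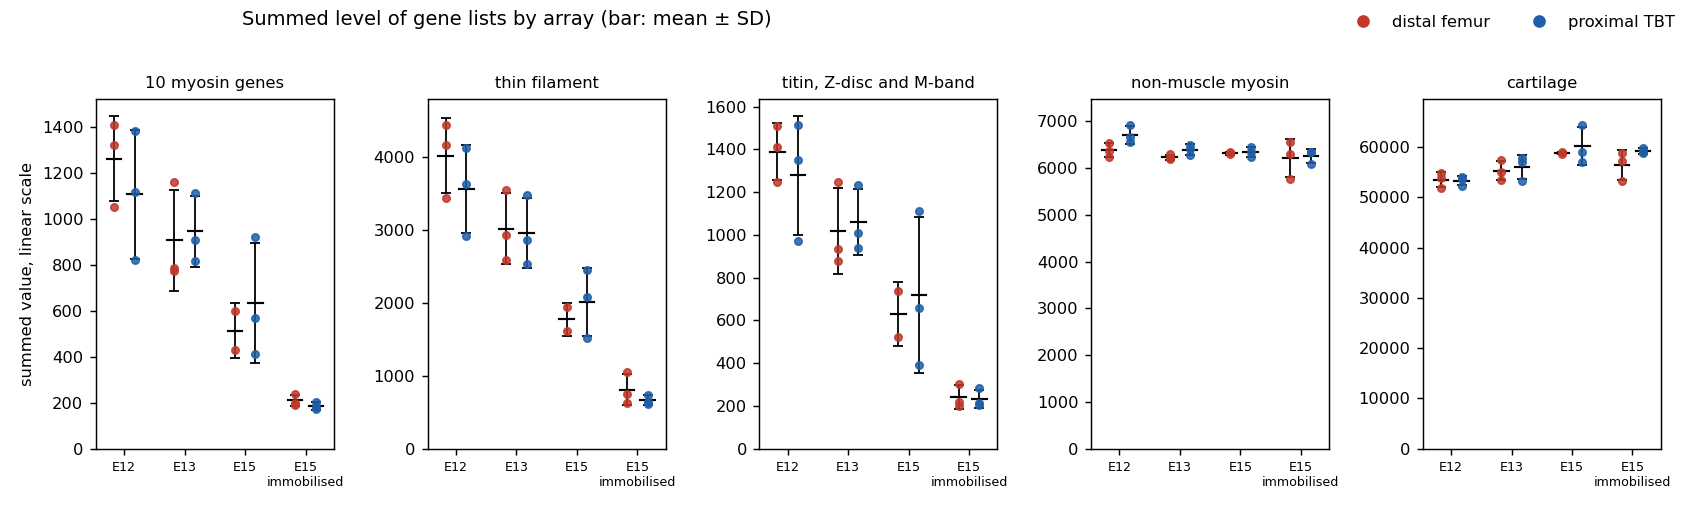
Summed linear RMA values over all genes on the array of 5 lists, for each array (points), by stage and treatment, for the femur (red) and TBT (blue); bars give the mean ± SD, and the axes start at 0. The 10 myosin genes sum to 774 to 1411 on the E12 and E13 arrays, 414 to 922 in the E15 controls and 171 to 237 after immobilisation, the thin filament and titin lists step down likewise, and the non-muscle myosin and cartilage lists do not. Genes with high values weigh most in each sum. The non-muscle myosin and cartilage sums therefore do not show that single genes of those lists were steady.

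The summed linear value of the 10 members was 820 to 1411 at E12, 774 to 1162 at E13, 414 to 922 in the E15 controls and 171 to 237 in the immobilised pools. No immobilised array reached any control array. The 11 thin filament genes summed to 2536 to 4445 at E12 and E13, 1521 to 2446 in the E15 controls and 620 to 1052 after immobilisation. The 10 genes of titin and the Z-disc summed to 877 to 1516, 393 to 1113 and 200 to 304 in the same groups. The 11 myogenic regulator genes overlapped, at 3905 to 4718 in the E15 controls and 3523 to 4525 after immobilisation. The 10 genes of the fibre membrane list summed to 1134 to 1383 in the E15 controls and 981 to 1167 after immobilisation, and to 1084 to 1464 at E12 and E13. Genes with high values weigh most in a linear sum. In the regulator list these were MEF2C and MEF2A (mean log2 values of 11.12 and 10.42), and in the fibre membrane list ATP2A2 (9.998). The overlap of these sums therefore does not show that the other genes of either list were steady. With immobilisation MSC (-3.17 in the femur and -3.15 in the TBT) and CASQ2 (-1.71 and -1.15) were lower, and EYA4 (0.57 and 0.52) was higher. The part of the amount of muscle tissue in the result was not tested.

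No cartilage marker moved past the threshold with immobilisation. Of the 11 cartilage markers, 0 were called in either element by limma (1 and 3 with an unadjusted p under 0.05 in the femur and TBT). Over all probe sets 2.5% were lower and 1.89% higher in the femur, and 2.86% and 2.88% in the TBT. At such shares 0 of 11 says little about cartilage. The largest differences were those of COMP (-0.71 in the femur and -0.87 in the TBT) and the type X collagen gene COL10A1 (-0.56 and -0.80). Sums of the 11 markers were 57132 to 64488 in the E15 controls and 53240 to 59886 after immobilisation. COL9A1 (mean log2 value of 12.87) and others of high value weigh most in these sums. The sums therefore do not show that COMP or COL10A1 was steady. The 6 non-muscle myosin genes summed to 6243 to 6446 and to 5769 to 6553, with 0 called in the femur (0 by the unadjusted p) and 1 in the TBT, the regulatory light chain gene MYL9 (-0.61, adjusted p = 0.0187). With stage, MYH10, a non-muscle heavy chain gene, was lower in the femur (-0.30, adjusted p = 0.0178) and TBT (-0.37, adjusted p = 0.00242). Among cartilage markers 2 were lower and 2 higher with stage in the femur and 2 were higher in the TBT, with COMP, a cartilage matrix protein gene, at 1.57 and 1.96.

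Markers of other tissues also moved with the groups. Of 8 tendon and fibrous tissue genes, 2 were lower with immobilisation in each element, the dermatopontin gene DPT (-3.18 and -3.21) and the periostin gene POSTN (-0.64 and -0.85), and 1 was higher, the tenomodulin gene TNMD (1.17 and 1.12). Of 4 neuronal genes past the filter (7 on the array), 2 were higher in each element, the neurofilament genes NEFM (3.23 and 2.50) and NEFL (2.37 and 1.92). Their mean log2 values were low (4.65 for NEFM and 4.39 for NEFL), and the SD used by the filter includes this rise. The count of 4 is therefore not independent of the change tested. Smooth muscle genes gave MYLK as higher (1.00 and 0.78) and, in the TBT, ACTG2 as lower (-0.84). In the TBT 2 of 4 erythroid genes were lower, HBA1 (-0.63) and SLC4A1 (-0.97), and none in the femur. By limma 0 of 8 endothelial genes were called with immobilisation (2 and 0 by the unadjusted p), and 0 of 4 leukocyte and osteoclast genes (0 and 2). Over all probe sets 2.5% were lower and 1.89% higher in the femur, and 2.86% and 2.88% in the TBT. Counts of 0 in lists this short therefore say little. With stage 4 of 4 erythroid and 3 of 4 leukocyte and osteoclast genes were higher in both elements, beside 2 endothelial genes in the femur. The share of all probe sets higher with stage was 5.26% in the femur and 3.74% in the TBT. Summed erythroid values were 4431 to 7306 at E12 and E13, 9034 to 12244 in the E15 controls and 7082 to 13154 after immobilisation, and the part of these cells in the changes of the myosin genes was not tested.

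Likeness was measured as Pearson's r over the 23 arrays, which share groups, so that r mostly reads the group pattern. The mean centred profile of the 10 members was most like that of ACTN2 (r = 0.991), the M-band gene MYOM3 (0.979) and the Z-disc gene MYOZ2 (0.973), followed by TNNC1, MYOM2, ACTA1, GATM, KLHL31, MAT1A and TNNC2 (0.963). Among single members, MYBPC1 lay nearest the skeletal actin gene ACTA1 (0.995), MYH1D nearest MYOD1 (0.970) and MYL2 nearest MYBPC3 (0.954). MYH1C, MYH1D and MYL4 had no sarcomere gene among their 3 nearest. These were ITIH5 (0.835), LGALS1A and LRFN5 for MYH1C, and MYOD1, OCM3 and CASZ1 for MYH1D. For MYL4 they were C4H4ORF50 (0.911), ZNF207 and PENK.

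Pairs of members had a median r of 0.77 over the 23 arrays, from -0.04 for MYH1C with MYL4 to 0.97 for MYH1G with MYBPC1. MYH1C stood out among the 10, with a median r of 0.28 to the other members. When each group's mean was taken off, the median r of the 45 pairs was 0.21, and 36 pairs were above 0, so most of the likeness lay between groups. The same values were not computed for other probe sets, so what remains within groups cannot be called particular to the members. MYH1D with MYBPC1 (0.71) and MYH1G with MYL2 (0.71) were the highest of these.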

How the data were processed

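RNA of 23 pools was hybridised to Affymetrix chicken arrays. The deposited log2 values were made by the authors by RMA; the labels name affy and the methods aroma.affymetrix, with versions and genome build not given in the sources used here. Values have 2 decimals and were not normalised again. Of 20804 probe sets, 12300 carry 1 symbol, 256 several and 8248 none, from GEO's platform annotation. The authors excluded 1 array.

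Group means of 8 groups (23 arrays, 15 residual degrees of freedom) were fitted with limma 3.58.1 in R 4.3.3 (lmFit, eBayes), p-values were adjusted by Benjamini-Hochberg over 11004 probe sets with SD above 10 on the linear scale, and calls were made at 0.05. Tests were two-sided. The script was checked on simulated data. Stage was E15 minus the mean of E12 and E13. The members and gene lists were chosen with earlier results of these data known. Named list genes were up to 3 per list with the largest change among those called with immobilisation. MYOD1, MYH10, COMP, COL10A1, PVALB and CHRND were named after their values were seen. Alternatives covered the filter, normalization, weights, blocks and left-out arrays.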

Additional observations from a re-analysis of the deposited data

How the results depend on the processing

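Of 185 repeated counts of called members, 164 stayed within 1.5 times. Of 656 repeated differences of single members, 569 kept their direction and side of the threshold, 72 lost the call, 11 gained it and 4 changed sign. These totals include comparisons with 0 members called, whose counts stayed at 0 when 1 array was left out. They also include differences that were not called and so had no call to lose. The calls themselves were therefore less steady than the totals. With no filter the TBT immobilisation count was 3. With probe sets kept only when their mean was above the median, it was 2 in the femur and 2 in the TBT, and the femur stage count was 3, from fewer members tested. With only the compared groups fitted, immobilisation gave 0 in the femur and 3 in the TBT, and stage 3 and 1. With array code as a block, stage gave 3 and 1 and immobilisation 4 and 4. Against E13 alone, an alternative chosen after seeing the data, stage gave 2 and 0. Leaving out 1 array gave 1 to 3 for immobilisation in the femur, 3 to 6 in the TBT, 1 to 7 for stage in the femur and 0 to 5 in the TBT. Dropping replicate 1 or 2 of the E15 control femur left 2 and 1 stage calls and 2 and 1 immobilisation calls in the femur. Dropping replicate 1 or 3 of the E15 control TBT left 1 and 0 stage calls, and dropping its replicate 2, or replicate 1 or 2 of the immobilised TBT, left 3 immobilisation calls. The sign of MYH7 with immobilisation in the femur, near 0 throughout, was positive with quantile normalization (0.001), and ranged from -0.0733 to 0.0367 when 1 array was left out. The cause was not tested.

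Same-numbered control and immobilised E15 arrays of an element did not deviate together, with correlations of -0.054 to 0.046. Pairing of same-numbered femur and TBT arrays was not tested. With the replicate block 4 and 5 members were called with immobilisation and 6 and 5 with stage, in femur and TBT. Each gene had 1 probe set, so averaging probe sets gave no other value. The main limits are 2 or 3 pools for each group, 2 in the E15 control femur, probes that close heavy chain copies may share, and log2 values with no detection calls.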

Other observations

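The E15 control TBT pools differed from each other in the level of several members. MYH1C ranged over 3.98 to 6.92, MYH1D over 5.09 to 6.80 and MYBPC1 over 6.53 to 7.80. Replicate 3 was lowest for MYH1B, MYH1C, MYH1D, MYH1G, MYL3, MYL4 and MYBPC1, and replicate 2 was highest for 9 of the 10 members, the exception being MYH7. Replicate 2 carried array code 09 and replicates 1 and 3 code 07, so its higher values cannot be told apart from the code. The summed linear value of the members in the 3 pools ran from 414 to 922. In the immobilised TBT the sums ran from 171 to 204, and MYH1G ranged over 3.72 to 4.39 and MYL3 over 2.80 to 3.41.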
